A study of Brassica rapa subsp. chinensis with 6 samples.

Results

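The 6 genes described here take up nitrate, build its nitrogen into glutamine, or store iron in the plastid. They were picked by identifier from the authors' table of 2958 genes called different between a chlorotic mutant of pakchoi (*Brassica rapa* subsp. *chinensis*) and its wild type. They are 3 nitrate transporter genes (Bra018655, Bra019744 and NRT2.5, Bra016747), a nitrate reductase gene (Bra003670), the glutamine synthetase gene GLN1_4 (Bra023573) and ferritin-1 (Bra005677). RNA came from the parts above ground at the trifoliate stage, from 3 libraries of strain 564, labelled wild type, and 3 of strain 564Y, labelled mutant. The labels name no treatment and give neither the mutated gene nor how the mutant line arose, so the strains may differ at other loci too.

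Plants take up nitrate through transporters of several families. Those of the NRT2 family work at low external nitrate and are known mostly from roots of Arabidopsis, although NRT2.5 is also active in shoots there. Nitrate reductase turns nitrate into nitrite in the cytosol, nitrite is reduced to ammonium in the plastid, and glutamine synthetase joins ammonium to glutamate. The GLN1 enzymes are the cytosolic form of glutamine synthetase, which acts largely in moving nitrogen between organs, while the plastid form is encoded by GLN2. Ferritin is a protein shell that stores iron, in leaves mainly within plastids, where iron is needed for photosynthetic proteins and for chlorophyll synthesis.

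In the mutant, the 3 nitrate transporter genes, GLN1_4 and ferritin-1 were lower and nitrate reductase was higher. The 3 transporters, with 17.7 to 103.6 normalised reads in the wild type, fell 5.84-fold to 13.8-fold, while GLN1_4 and ferritin-1 were among the most abundant genes of the table and fell 2.70-fold and 2.44-fold. Thus 5 of the 6 were lower and 1 was higher. Over the whole table, lower genes made up 40.3% and higher genes 59.7%, and 100% of the table's genes were called, because it lists called genes alone. The direction of the 6 genes was known when they were picked, so their count against this background is a description.

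Values below are normalised read counts, which the authors obtained by dividing the reads of each library by a size factor. The deposited table gives a mean per strain, and whole read counts of the single libraries were worked out from these means where exactly 1 set of counts solved them. That was so for 2619 of the 2958 genes (88.5%) and for 3 of the 6 genes here in both strains. Within each strain the letters A, B and C mark the libraries from the largest to the smallest size factor, because the labelled replicate numbers cannot be tied to them. The size factors ran from 0.961 to 1.04. All 2619 of these genes (100%) had libraries that did not overlap between the strains, which follows from their selection. In RNA from whole shoots, fewer cells of a type and less RNA per cell cannot be told apart.

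**Figure D1:**
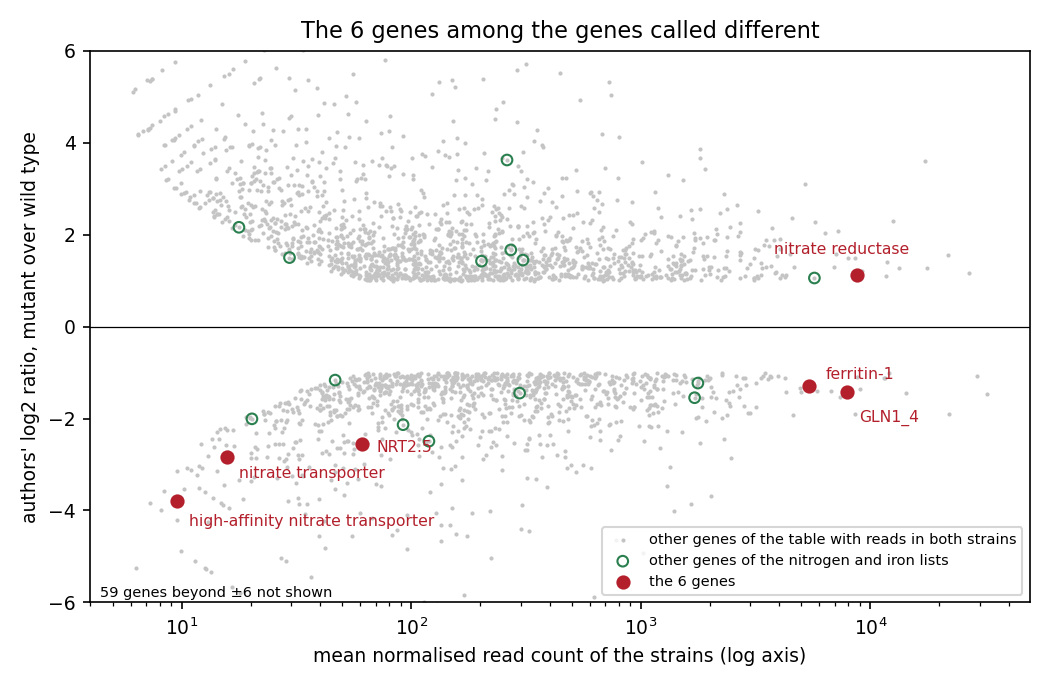
Each point is a gene of the authors' table with reads in both strains, placed by its mean normalised read count over both strains (log axis) and by the authors' log2 ratio of mutant to wild type. The 6 genes are red and other genes of the nitrogen and iron lists are green circles. A further 59 genes lie beyond the range of the vertical axis. The nitrate transporters lie at low counts with log2 ratios of -2.55 to -3.79. GLN1_4, ferritin-1 and nitrate reductase lie among the most abundant genes, with ratios of -1.43, -1.28 and 1.13. Of these, nitrate reductase lies nearest to the authors' limit of 1.

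The high-affinity nitrate transporter gene Bra018655, matched to a *Brassica napus* protein, had the largest change of the 6. Its normalised read counts were 24.3, 14.2 and 14.6 in wild type libraries A, B and C and 1.92, 1.92 and 0 in the mutant libraries. The highest mutant library thus lay well below the lowest wild type library, although the mutant values rest on 4 reads in all against 52 in the wild type. The mean fell from 17.7 ± 5.71 to 1.28 ± 1.11 (SD, n = 3 each), which is 13.8-fold lower with a 95% counting interval of 5.08-fold to 52.6-fold. This exact binomial interval on the summed reads covers counting error only, as do those given below. The authors' deposited table gives a log2 ratio of -3.79 and an adjusted p-value of 5.59e-05. Of the 1129 lower genes with reads in both strains, 92.6% changed less. Without mutant library C, which holds none of the reads, edgeR's log2 change was -3.12, beside -3.66 with all libraries.

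The next identifier in the table, Bra018656, carries the same product description and was also lower. It is not one of the 6 genes. Since no source used here says how reads shared by near-identical copies were counted, the values of either copy are uncertain. Bra018656 had 35.4, 33.6 and 28.1 normalised reads in the wild type libraries and 5.76, 10.6 and 7.81 in the mutant libraries, again with no overlap. It fell 4.02-fold (counting interval 2.56-fold to 6.52-fold), and the authors' deposited table gives an adjusted p-value of 0.000251. Per kilobase of coding length it was 1.88-fold above Bra018655 in the wild type and 6.46-fold above it in the mutant, and the difference between the 2 changes was not tested. If each shared read was given to a single copy, the sum over both copies does not depend on the split. If shared reads were left out or counted for both copies, the sum is uncertain too. This sum went from 59.7, 47.8 and 42.7 normalised reads in the wild type libraries to 7.68, 12.5 and 7.81 in the mutant libraries. It was 5.36-fold lower (counting interval 3.58-fold to 8.29-fold).

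The nitrate transporter gene Bra019744, also matched to a *Brassica napus* protein, has a gene model of 807 coding bases, against 1506 for Bra018655 and 1728 for NRT2.5. Its normalised read counts were 35.4, 26.5 and 20.8 in wild type libraries A, B and C and 3.84, 5.77 and 1.95 in the mutant libraries. Every wild type library was above every mutant library, and library A was the highest of the wild type here as it was for Bra018655. The mean fell from 27.6 ± 7.37 to 3.86 ± 1.91 (SD, n = 3 each), 7.15-fold lower with a counting interval of 3.88-fold to 14.4-fold. The authors' deposited table gives a log2 ratio of -2.84 and an adjusted p-value of 1.36e-05 for it. The mutant value rests on 12 reads in all.

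NRT2.5 (Bra016747), matched to an Arabidopsis transporter known for uptake under nitrogen starvation, was the most abundant and the most evenly measured of the 3 transporters. It had 104.2, 108.9 and 97.8 normalised reads in wild type libraries A, B and C and 15.4, 14.4 and 23.4 in the mutant libraries. The wild type libraries lay close together, and mutant library C was above the other two mutant libraries but far below the wild type. The mean fell from 103.6 ± 5.55 to 17.7 ± 4.96 (SD, n = 3 each), 5.84-fold lower with a counting interval of 4.37-fold to 7.93-fold. In the authors' deposited table its log2 ratio was -2.55 with an adjusted p-value of 3.86e-16.

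**Figure D2:**
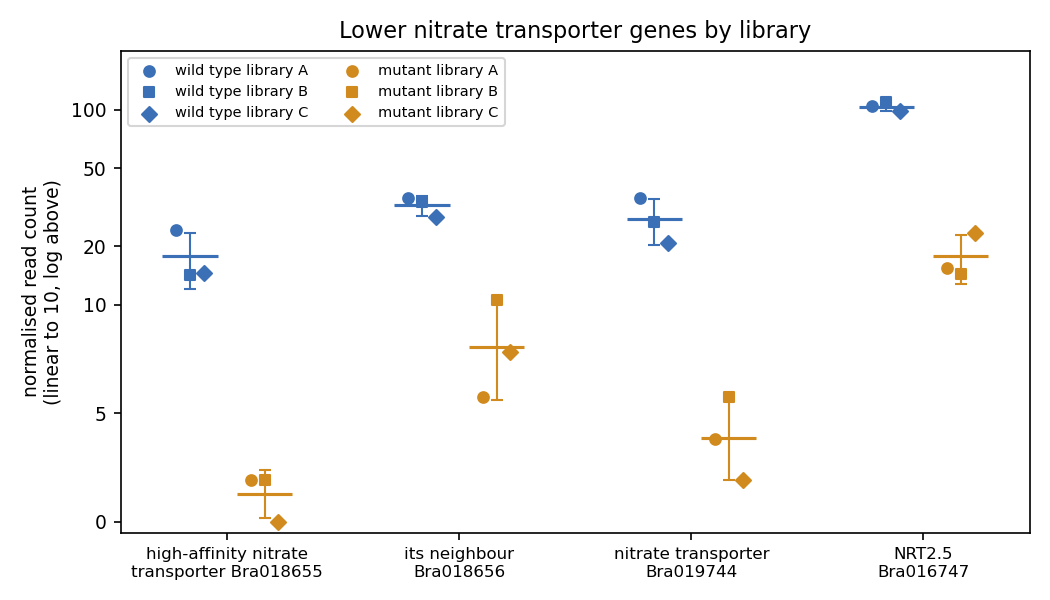
Normalised read counts of the 3 nitrate transporter genes and of Bra018656 in each library with the mean and SD per strain (n = 3), on an axis that is linear up to 10 and logarithmic above. In all 4 genes the 3 wild type libraries (blue) lie above the 3 mutant libraries (orange).

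The spread between libraries can be set beside these changes with edgeR's quasi-likelihood test on the 2619 genes with library counts. It gave log2 changes of -3.66 (SE 0.68) for Bra018655, -2.80 (SE 0.48) for Bra019744 and -2.54 (SE 0.24) for NRT2.5, with Benjamini-Hochberg adjusted p-values of 4.02e-05, 1.7e-05 and 1.22e-08. Each SE was derived from the change and its F statistic. The same test called 100% of the 2619 genes at 0.05 and 99.8% at the authors' limits, since all of them had been selected for the difference, so these p-values are no independent evidence. The standard errors order the precision of the 3 transporters, with NRT2.5 the best measured and Bra018655 the least.

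Not all nitrate transporter genes of the table were lower. Of 7 called genes whose product names nitrate transport, 4 were lower and 3 were higher. That is 57.1% lower and 42.9% higher, beside 40.3% lower and 59.7% higher over the whole table. The lower ones were the 3 described, which were picked with their direction known, and Bra018656. The higher ones were Bra012052, named nitrate transporter (NTP2), Bra010117, named nitrate transporter NTL1, and Bra026201, a PTR2 dipeptide transporter with nitrate transport among its annotated activities. Bra012052 was by far the most abundant, with authors' means of 3703 (wild type) and 7704 (mutant) normalised reads, 2.08-fold higher. Bra010117 went from 109.8 ± 5.82 to 294.5 ± 39.7 (SD, n = 3 each), with 104 to 115 normalised reads in the wild type libraries and 249.7 to 325 in the mutant libraries. Bra026201 went from 5.09 to 20.8 normalised reads in the wild type libraries to between 38.4 and 51.8 in the mutant libraries.

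Most nitrate transporter reads of the table thus came from a gene that was higher. Summed per kilobase of coding length, the 4 lower genes gave 128 normalised reads in wild type libraries and 21.4 in mutant libraries. The 3 higher genes gave 2439 and 5122 on the same scale, nearly all of it from Bra012052, which alone went from 2365 to 4920. Counted over these 7 called genes, the level per kilobase was 2-fold higher in the mutant. This sum rests on Bra012052, whose log2 ratio of 1.06 is close to the authors' limit of 1 and whose mutant library counts are not fixed. The median shift of -0.43 that TMM scaling gives over the genes with library counts is larger than its margin over that limit.

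Nitrate reductase (Bra003670), matched to a NIA2 protein of *Brassica napus*, was the only one of the 6 genes that was higher. In wild type libraries A, B and C it had 5101, 5244 and 6155 normalised reads, a mean of 5500 ± 572 (SD, n = 3). In the mutant, 72 sets of library counts solve the deposited means, so single library values are not fixed, but the mean of 12030 is. Library C is narrowly bounded in these sets, at 11699 to 13294 normalised reads, above every wild type library. Libraries A and B trade off against each other, and in 52 of the 72 sets all 3 mutant libraries lie above the wild type. The authors' means give a 2.19-fold higher level (counting interval 2.15-fold to 2.23-fold), and the authors' deposited table a log2 ratio of 1.13 with an adjusted p-value of 2.77e-30. With 1 library left out, the smallest log2 ratio over the 72 sets was 0.46, and 0.70 over the 57 of them that pass the limit on unevenness described below for GLN1_4, so the call at a log2 limit of 1 can rest on mutant library A or B. The call also ends when the median shift that TMM scaling gives over the recovered genes is applied, which takes the log2 ratio to 0.70. Among the 1681 higher genes with reads in both strains, 14.4% changed less.

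No other gene of the table was matched to nitrate or nitrite reduction. Because the table lists called genes only, this says that no other gene with such a name passed the authors' limits, and the levels of a second nitrate reductase or of nitrite reductase were not analysed here.

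GLN1_4 (Bra023573) was the most abundant of the 6 genes in the wild type and ranked 12 among the 2958 genes there. The authors' mean went from 11503 to 4267 normalised reads, 2.70-fold lower (counting interval 2.64-fold to 2.75-fold), and its rank in the mutant was 62. In the authors' deposited table its log2 ratio was -1.43 with an adjusted p-value of 4.31e-62. The mutant libraries are bounded by 8 sets of counts at 3960 to 5419, 3185 to 4801 and 4038 to 4196 normalised reads for A, B and C. The wild type has 28 sets, and 15 of them are no more uneven than the most uneven abundant gene with known libraries, which had a coefficient of variation of 53.7%. This limit is a wide one, since it is the highest of 273 values with a median of 6.24%. In those 15 sets the wild type libraries lie between 5785 and 17688 normalised reads, above every mutant library in all 120 combinations with the mutant sets. Without that limit on unevenness, 134 of 224 combinations had no overlap. The smallest log2 ratio with 1 library left out was -0.98 within the limit and -0.21 without it, in both cases with wild type library B left out.

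A second gene with the same product name, GLN1;4 (Bra008612), has the same coding length of 1071 bases and fell by a similar factor, with library counts that are known exactly. It had 2561, 2498 and 2607 normalised reads in the wild type libraries and 877, 856.3 and 889.9 in the mutant libraries. The coefficient of variation was 2.14% and 1.94%, and the fall was 2.92-fold (counting interval 2.80-fold to 3.05-fold). GLN1_4 was 4.50-fold more abundant than this copy in wild type plants and 4.88-fold in mutant plants. As for the transporter pair, it is not known how reads shared by the 2 copies were counted, and their sum can depend on it. The sum over both copies fell 2.73-fold from 14058 to 5141 normalised reads. These 2 were the only called genes matched to glutamine or glutamate synthesis, so none was matched to the plastid glutamine synthetase or to glutamate synthase.

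Ferritin-1 (Bra005677), matched to the chloroplast precursor of *Brassica napus*, had authors' means of 7625 (wild type) and 3131 (mutant) normalised reads. It was 2.44-fold lower (counting interval 2.38-fold to 2.49-fold), and the authors' deposited table gives a log2 ratio of -1.28 with an adjusted p-value of 6.67e-49. The wild type means are solved by 2 sets of library counts. One gives 8193, 7421 and 7262 normalised reads for libraries A, B and C, and the other gives 2556, 14371 and 5950, which is more uneven than any abundant gene with known libraries. The mutant libraries are bounded by 7 sets at 2034 to 3284, 2913 to 4299 and 3060 to 3194 normalised reads. With the even wild type set all 3 wild type libraries lie above the mutant in each of the 7 combinations, and with the other set in none. With 1 library left out the smallest log2 ratio was -1.05 with the even set (mutant library A left out) and -0.44 with the other (wild type library B left out). Its change was ordinary for the table, since 31.8% of the 1129 lower genes changed less.

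**Figure D3:**
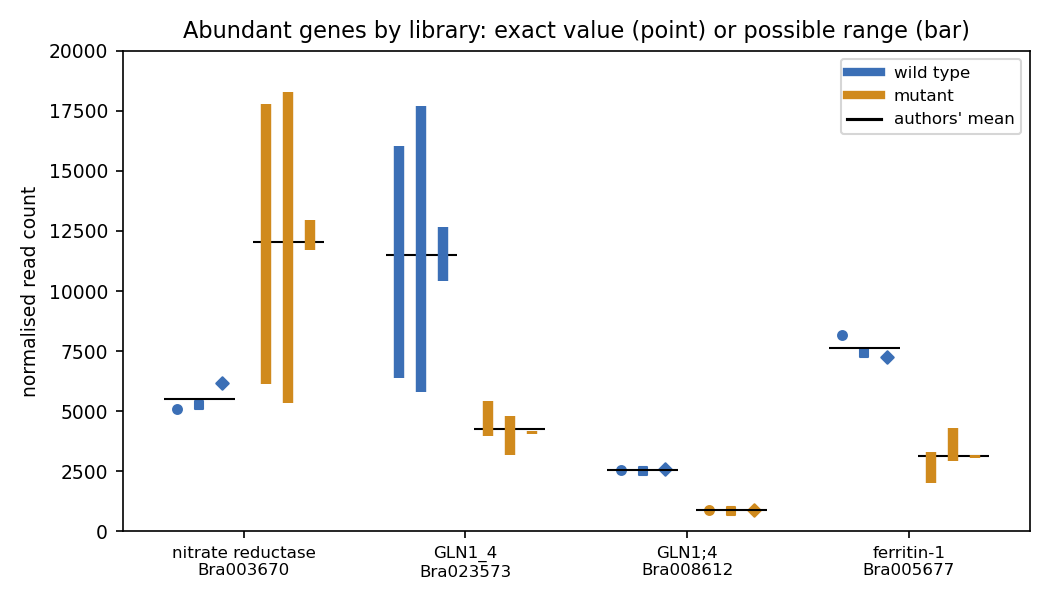
Normalised read counts of the abundant genes by library, with the authors' mean per strain as a black line. A bar is the range over all sets of whole counts with a coefficient of variation of at most 53.7%. A point is an exactly known library value, except for wild type ferritin-1, whose points come from the only set within that limit. Sets beyond the limit are not shown. Within a strain libraries A, B and C stand from left to right. Among the values shown, GLN1_4, GLN1;4 and ferritin-1 have every wild type value above the mutant ones. The bars of mutant libraries A and B of nitrate reductase reach down to the wild type level.

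Compared per kilobase of coding length, the order of the 6 genes changed at its upper end. In the wild type GLN1_4 stood first at 10741 normalised reads per kilobase, ferritin-1 second at 9176 and nitrate reductase next at 2012. In the mutant nitrate reductase stood first at 4402, GLN1_4 second at 3984 and ferritin-1 next at 3767. The ranges of GLN1_4 and ferritin-1 overlap in the wild type, and those of all 3 genes overlap in the mutant, so at this end only the gap between nitrate reductase and the other two in the wild type exceeds the spread between libraries, taken over the sets of counts within the limit on unevenness. GLN1_4 was 5.34-fold above nitrate reductase per kilobase in the wild type, a ratio that was 0.905 in the mutant. At the lower end the order was the same in both strains. NRT2.5 had 60 (wild type) and 10.3 (mutant) normalised reads per kilobase, Bra019744 34.2 and 4.78, and Bra018655 11.8 and 0.851. Library values of neighbours in this order did not overlap in either strain. In the mutant, however, the lowest library of Bra019744 and the highest of Bra018655 each held 2 reads. Their values of 2.42 and 1.28 per kilobase differ mainly through the coding lengths of 807 and 1506 bases.

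**Figure D4:**
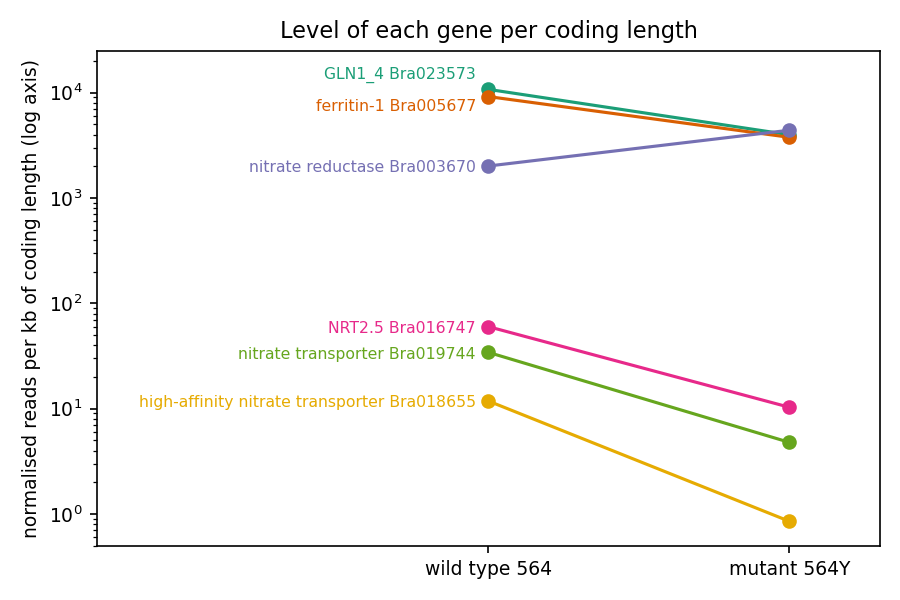
Authors' mean normalised reads per kilobase of coding length for each of the 6 genes in both strains (log axis, lines join the strains). Nitrate reductase goes from 2012 to 4402 and crosses GLN1_4 and ferritin-1, while the 3 transporters stay in the same order at 60 or less.

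The other called genes of nitrogen metabolism went both ways. A list of transporters, enzymes and regulators of nitrogen matched 16 called genes, 8 higher and 8 lower, with a median log2 ratio of -0.19 beside 1.15 over the genes of the whole table with reads in both strains. No gene of the table lies between -1 and 1, so such medians mainly restate the direction counts. The median was 1.47 among the 8 higher genes and -2.31 among the 8 lower ones. Of these 16 genes, 5 are among the 6 genes described, which were picked with their direction known. The other 11 had 7 higher and 4 lower, with a median log2 ratio of 1.42. That is 63.6% higher, near the 59.7% over the whole table.

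The largest rise in the list was that of asparagine synthetase. Asparagine synthetase (Bra018160), which makes the nitrogen-rich transport amino acid asparagine, had 39.5, 42.7 and 35.4 normalised reads in the wild type libraries and 428.4, 504.1 and 516.8 in the mutant libraries. Its mutant libraries all lay at about the same high level, 12.3-fold above the wild type (counting interval 10.2-fold to 15.0-fold). The authors' deposited table gives a log2 ratio of 3.62 with an adjusted p-value of 1.73e-82. Glutamate dehydrogenase (Bra028697), which can release ammonium from glutamate, rose 2.73-fold from 164.5 ± 30.2 to 448.4 ± 2.61 normalised reads (SD, n = 3 each). A putative alanine aminotransferase (Bra009959), an enzyme that moves amino groups between alanine and glutamate, fell 5.63-fold from 202.6 ± 20.8 to 36.0 ± 13.7 (SD, n = 3 each).

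Of the regulators, LBD37 (Bra037847), a factor known in Arabidopsis to repress genes of nitrate uptake and reduction, rose 3.18-fold. It had 127, 143 and 120 normalised reads in the wild type libraries and 422, 355 and 461 in the mutant libraries, with no overlap. CIPK23 (Bra032374), a kinase that acts on nitrate and potassium transporters in Arabidopsis, rose 4.47-fold from 6.49 ± 0.69 to 29.0 ± 8.79 (SD, n = 3 each). Bra016389 fell 4.39-fold, but its name TGA4 comes from a maize protein, so it need not be the counterpart of the Arabidopsis nitrate regulator of that name.

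The iron list matched 4 called genes, and all 4 were lower, with log2 ratios between -1.16 and -1.45, where 40.3% of all genes of the table were lower. Among the 4 is ferritin-1, picked with its direction known, which leaves 3 others. Besides ferritin-1 these were 2 genes named SUFE2, activators of iron-sulfur cluster assembly in plastids, and ATIREG1, an iron-regulated transporter. SUFE2 (Bra004261) had authors' means of 2484 and 1060 normalised reads, 2.34-fold lower. The other SUFE2 gene (Bra033977) fell 2.73-fold, from 433.6 ± 56.2 to 159.0 ± 18 (SD, n = 3 each). As for the pairs above, it is not known how reads shared by the 2 SUFE2 genes were counted, so they may not be separate observations. ATIREG1 (Bra005106) fell 2.24-fold, from 64.4 ± 11.5 to 28.7 ± 10.9 (SD, n = 3 each), with an adjusted p-value of 0.000931 in the authors' deposited table, close to their limit of 0.001. No called gene was matched to iron uptake or reduction, or to the regulators of iron deficiency.

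**Figure D5:**
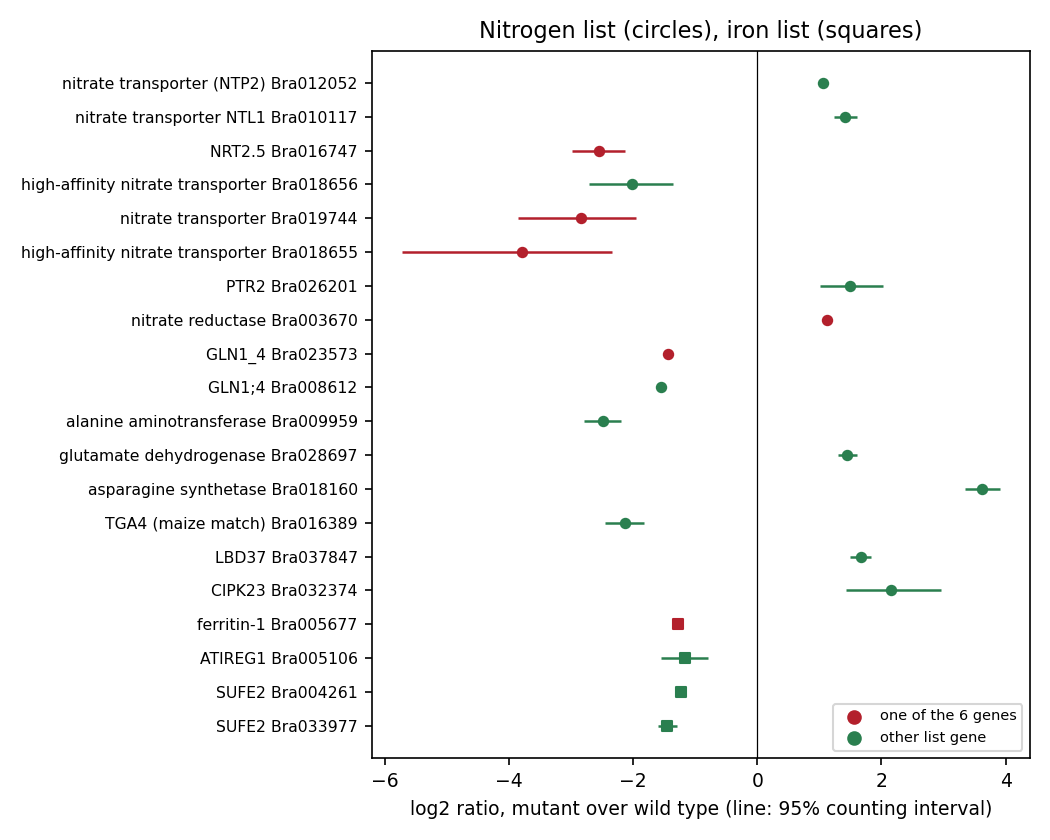
Authors' log2 ratio of mutant to wild type for the 16 called genes of the nitrogen list (circles) and the 4 of the iron list (squares), with the 6 genes in red and a line for the 95% counting interval. Nitrogen genes lie on both sides of 0, from -3.79 to 3.62, and the iron genes lie between -1.16 and -1.45.

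Markers of leaf, root and flower were counted among the called genes. No called gene was a leaf marker: the single match was CES101, a receptor kinase matched by a word in its name. Of 3 called root markers, RHD2 (7.834 against 56.7 normalised reads) and MLP34 (0.347 against 31.3) were higher in the mutant and PERK13 (23.9 against 0) was lower. Of 4 matches to flower markers, only AGL8 (0 against 14.2 normalised reads) and AGL9 (0.675 against 25.7) are floral genes, both higher in the mutant. The part of these organs in the values of the 6 genes was not tested.

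Likeness over libraries could be measured for the 3 transporters, as Pearson's r of log2(normalised reads + 1) over the 6 libraries, which share 2 strains and the same depths. For NRT2.5 the nearest genes were a nodulin family gene (Bra011573, r = 0.9996), Bra010045 (0.9995) and a GDSL-motif lipase gene (Bra010304, 0.9994). For Bra019744 they were Bra016025 (0.9979), CYP71B9 (Bra034239, 0.9953) and a tRNA synthetase gene (Bra001059, 0.9946). For Bra018655 they were an AAA-type ATPase gene (Bra036936, 0.9951), a xyloglucan endotransglucosylase gene (Bra013367, 0.9944) and Bra027759 (0.9935). Such values are common in this table of selected genes: 29.9%, 17.6% and 13.8% of the genes compared had an r over 0.95 with NRT2.5, Bra019744 and Bra018655. None of these nearest genes was matched to the nitrogen list, and Bra010045, Bra016025 and Bra027759 are named only as hypothetical proteins.

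Among called genes with neighbouring identifiers, the transporter pair shared a direction and the few others did not. These others were all higher, as were 59.7% of the genes of the table. Neighbours that were not called could not be compared. Within 3 identifier numbers, GLN1_4 had the called kinase gene LRR1 (Bra023574), 2.87-fold higher. Bra019744 had the extensin-like gene ELP (Bra019742), 2.93-fold higher, and Bra019741, which has no product name and was 8.59-fold higher. For nitrate reductase, NRT2.5 and ferritin-1 no gene this close was called.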

How the data were processed

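RNA-seq of 6 libraries was analysed from 1 table of 2958 called genes. The authors deposited, per the file headers, the mean read count and the base mean of each strain (the mean read count is treated as a signal), the log2 ratio of the base means, and a p-value with its adjusted value. Adjusted p-values were all under 0.001 and log2 ratios at least 1 in size. The submitters' processing notes list DESeq 1.10.1, Bowtie2 2.2.3 and TopHat2 2.0.12 without roles. No source used here gives the build, annotation or counter. The labels call the libraries biological replicates, and their protocol speaks of several time points although 1 stage is given.

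Whole library counts were solved from 3 times the mean read count and from the base mean. The weights were read from genes with a single read and refined by weighted least squares. A set counts as solved when it meets the base mean within its printed rounding plus an allowance for the error of the fitted weights. The solver and the edgeR 4.0.16 fit were tested on simulated data. edgeR used these size factors and no filter. DESeq2 1.42.0, TMM, filterByExpr, left-out libraries and stricter limits were alternatives. The mean read count columns are whole reads recovered: 100% of genes gave a whole sum within 1e-05 reads. Counts of the edgeR test at the authors' limits were 2615 of 2619. Total library depths are not given. All 2958 lengths were multiples of 3, so they are coding lengths. The reference gene table held 0 of the identifiers, and positions and sequences are therefore left out.

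Genes named were the 6, called genes of the lists (at most 12 per list by size of change), genes with a member's product words, identifiers within 3, and for each recovered member the 3 nearest genes by correlation among those with at least 20 normalised reads. The 6 genes and the lists were chosen with earlier results of these data known.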

Additional observations from a re-analysis of the deposited data

How the results depend on the processing

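No paired analysis was possible because no replicate number can be tied to a library. Of 45 recomputed values for the 6 genes, 39 kept direction and call, 6 no longer reached the log2 limit of 1 and 0 reversed. Of the 6, 5 are bounds over unresolved library counts. These bounds, the limit on unevenness, the TMM shift of unresolved genes and the list without 2 doubtful matches (7 higher, 7 lower) were chosen after seeing the data. With 1 library left out, the smallest log2 ratio over all sets was 0.46 for nitrate reductase, -0.21 for GLN1_4 and -0.44 for ferritin-1. Over even sets it was 0.70 and -0.98 for the first 2 and -1.05 for ferritin-1, which kept its call. Leaving out 1 library in edgeR gave log2 changes of -3.12 to -4.03 for Bra018655, -2.49 to -3.19 for Bra019744 and -2.41 to -2.79 for NRT2.5. Scaling by TMM shifted the median log2 change of the 2619 genes by -0.43, which is too small to turn a sign in a table with a log2 limit of 1. The same shift takes nitrate reductase to 0.70, under the limit, GLN1_4 to -1.86 and ferritin-1 to -1.71, and it uses called genes as the reference. With a log2 limit of 2 the nitrogen list had 2 higher genes and 6 lower, the iron list 0 lower, and all genes gave 727 higher and 392 lower. At an adjusted p of at most 1e-10 the nitrogen list had 6 higher genes and 5 lower, the iron list 3 lower, and all genes gave 939 higher and 677 lower. Few reads limit the transporters: Bra018655 rests on 4 mutant reads and Bra019744 on 12.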

Other observations

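Genes that move amino acids and peptides lay outside the lists and were picked after their values were seen, so their counts are descriptions. All 4 called genes named glutamine dumper, membrane proteins whose overexpression in Arabidopsis makes cells export glutamine, were higher in the mutant, where 59.7% of the 2958 genes of the table were higher. GDU1 (Bra023987) went from 3.04, 2.03 and 4.16 normalised reads in the wild type libraries to 52.8, 37.5 and 52.8 in the mutant libraries, 15.5-fold higher (counting interval 7.95-fold to 34.6-fold). The other GDU1 gene (Bra011294) was 8.39-fold higher, and the AtGDU2 genes Bra013917 and Bra019142 were 2.42-fold and 2.83-fold higher. How reads shared by genes of the same name were counted is not known here either. In all 4 the libraries of the strains did not overlap, as in 100% of the 2619 genes with library counts.

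Of 7 called genes named proton-dependent oligopeptide transport or PTR2, the family that also holds low-affinity nitrate transporters, 6 were higher and 1 was lower, beside 59.7% higher and 40.3% lower over the table. Bra018952 was the most abundant, with authors' means of 1153 and 3593 normalised reads, 3.12-fold higher. The lower gene, Bra008728, went from 384.5 ± 26.6 to 169.3 ± 23 (SD, n = 3 each). The substrates of these genes are not given by their names.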
